A study of Mus musculus with 4 samples.

Results

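The 36 genes described here encode the route by which a cell takes up glucose, splits it to pyruvate and lactate and exports the lactate, together with the oxygen-sensing HIF system and a set of its target genes. They were chosen by name out of 22911 gene symbols on the array. Of them 27 handle sugar (glucose transporters, hexokinases, the enzymes from glucose phosphate isomerase to enolase, lactate dehydrogenases, lactate transporters and regulators of the pathway) and 9 belong to the HIF system and its targets (*Hif1a*, *Epas1*, *Egln1*, *Egln3*, *Bnip3*, *Car9*, *Ankrd37*, *Ndrg1* and *Ddit4*). All 36 were measured on all 4 arrays, through 60 probes, of which 58 passed the quality flags on all 4 arrays.

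Glycolysis converts glucose to pyruvate in the cytosol and yields ATP without oxygen. Hypoxia-inducible factors (HIFs) are transcription factors whose alpha subunits, *Hif1a* and *Epas1* (Hif2a) among them, are hydroxylated by the prolyl hydroxylases *Egln1* and *Egln3* when oxygen is present and are then degraded. When oxygen is short the alpha subunits persist, pair with *Arnt*, bind a short DNA element called the hypoxia response element and raise the transcription of many glycolytic genes and of targets such as *Car9* and *Bnip3*. Stromal and immune cells of tumors often show this program, and it is also used by proliferating and activated cells.

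RNA was taken from tumors that Bcr-Abl+ hematopoietic progenitor cells (HPCs, marked by GFP) formed under the skin of 8-week-old Wt or *Sipa1*-/- mice of strain C57BL/6Ncr. *Sipa1* encodes a GTPase-activating protein for Rap1, and the deletion was carried by the host mice, whereas the HPCs came from Wt marrow. Every host received 15000 HPCs in Matrigel, and tumors were taken on day 12. From 5 mice per genotype, mesenchymal stroma cells (MSCs) were sorted as GFP- CD45- Ter119- CD31- cells and CD8+ T cells as GFP- TCRb+ CD8+ cells, which gave 4 conditions with 1 array each. The MSC gate was set by absent markers only, without PDGFRa, so any non-blood, non-endothelial cell of the tissue could enter it. Whether the mice were pooled is not given in the sources used here. With 1 array per condition no test was possible, so every ratio below compares a pair of arrays, and the spread between mice is unknown.

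Levels are log2 spot signals relative to the 75th percentile of the same array, so a level of 0 is the signal of that percentile. Levels serve to compare one gene between arrays, not different genes with each other. A log2 ratio is the difference between a pair of such levels, and a gene was counted as higher or lower when the ratio reached 1 in size, a 2-fold difference. Repeat spots of 1 probe on an array had a median SD of 0.040 to 0.045 on the log2 scale, which covers spot noise only. Among the 15 members with several usable probes, the probes' MSC genotype ratios spanned a median of 0.11 and at most 0.49, the latter for *Car9*.

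Between 60.3% and 65.3% of the spots were well above background, and 0 spots were saturated. The targeted gene, *Sipa1*, was lower on both knockout arrays, with MSC levels of 4.04 in Wt and 2.62 in *Sipa1*-/- cells and CD8+ T cell levels of 4.42 and 2.56. It stayed above background in the knockout, and where its 2 probes lie relative to the deleted part was not analysed here. The MSC arrays held fibroblast markers, among them *Col1a1* at 6.88 in Wt and 7.15 in *Sipa1*-/- cells, and the CD8+ arrays held T-cell markers, among them *Cd3d* at 6.95 in Wt and 6.88 in *Sipa1*-/- cells. The MSC arrays also differed from each other in markers of cells that the gate should have left out. All 17 measured B-lineage markers were lower in *Sipa1*-/- MSCs by 2-fold or more, with *Cd79a* at 1.96 in Wt and -2.37 in *Sipa1*-/- MSCs. In bulk samples, fewer cells of a type and less RNA per cell cannot be told apart.

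The letters ACGTG and GCGTG, the core of the hypoxia response element, were searched on both strands in the 250 bases before each start of a gene (RefSeq, mouse build GRCm38.p6). Genes with several starts have several windows, and a gene was counted when any of its windows held a match. The 32 members with such a window included all but *Slc2a3*, *Slc2a4*, *Epas1* and *Ndrg1*. ACGTG was found for 18 of the 32 (56.2%), against 18.5% of 27025 genes with a window and 23.9% of 10930 such genes measured on all 4 arrays. GCGTG was found for 20 of the 32 (62.5%), against 30.9% of all genes and 46.6% of those measured. Either one was found for 28 of the 32 (87.5%), against 41.5% and 57.7%, and *Gpi1*, *Tpi1*, *Eno2* and *Pgam2* held none. Counted by window, ACGTG was in 47.7% of the members' 44 windows and in 16.6% of all 32851, and either core in 81.8% and 38.6%. The palindrome CACGTG, which counts as an ACGTG match on each strand and is also the core letters of other factors' sites, was found for 6 of the 32. The members were chosen by name, known HIF targets among them, so the comparison with all genes is not independent of that choice. A match of these letters is a description of the sequence and not evidence of binding.

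Among the 12 windowed members that were at least 2-fold higher in *Sipa1*-/- MSCs, 9 (75%) held ACGTG, and among the other 20 members 9 (45%) did. GCGTG ran the other way, with 6 of 12 (50%) and 14 of 20 (70%), and either core was found for 91.7% and 85%. All 7 windowed members of the HIF system and its targets held ACGTG, and all of these except *Ankrd37* were among the 12. The contrast in ACGTG between the 12 and the 20 is therefore not independent of the choice of known HIF genes as members. The 6 windowed members with the largest ratios, 3.06 to 5.42 times higher in *Sipa1*-/- MSCs, were *Egln3*, *Eno2*, *Ldhb*, *Slc16a3*, *Car9* and *Bnip3*. Of these, *Eno2* held no match and *Ldhb* held 1 GCGTG but no ACGTG. The 4 that held ACGTG and, for contrast, *Eno2* are shown. They are written 5' to 3' on the gene's strand, ending at the base before the start, with every ACGTG or GCGTG match on either strand in capitals (none in *Eno2*). *Egln3* lies at chr12:54203875-54204124 (minus strand) and *Bnip3* at chr7:138909507-138909756 (minus strand). *Slc16a3* lies at chr11:120948817-120949066 (plus strand) and *Car9* at chr4:43506776-43507025 (plus strand). *Eno2* lies at chr6:124769674-124769923 (minus strand).
Egln3: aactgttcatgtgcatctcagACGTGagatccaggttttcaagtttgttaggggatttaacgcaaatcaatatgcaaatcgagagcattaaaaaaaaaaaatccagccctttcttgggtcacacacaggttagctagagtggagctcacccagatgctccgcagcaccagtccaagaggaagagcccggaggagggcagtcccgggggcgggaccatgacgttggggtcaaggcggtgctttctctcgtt
Bnip3: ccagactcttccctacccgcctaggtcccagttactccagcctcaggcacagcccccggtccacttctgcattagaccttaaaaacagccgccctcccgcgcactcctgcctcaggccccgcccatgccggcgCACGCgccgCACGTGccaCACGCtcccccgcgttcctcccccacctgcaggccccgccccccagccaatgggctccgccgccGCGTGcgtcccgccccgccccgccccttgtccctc
Slc16a3: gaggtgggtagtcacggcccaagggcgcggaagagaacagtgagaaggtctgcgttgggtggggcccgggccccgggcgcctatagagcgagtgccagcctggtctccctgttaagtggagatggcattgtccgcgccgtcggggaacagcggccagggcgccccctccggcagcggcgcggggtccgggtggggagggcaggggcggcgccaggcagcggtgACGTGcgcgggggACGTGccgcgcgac
Car9: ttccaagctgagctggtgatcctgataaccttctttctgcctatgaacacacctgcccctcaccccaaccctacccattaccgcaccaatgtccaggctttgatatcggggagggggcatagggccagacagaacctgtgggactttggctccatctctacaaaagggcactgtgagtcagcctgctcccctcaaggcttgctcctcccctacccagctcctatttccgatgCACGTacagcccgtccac
Eno2: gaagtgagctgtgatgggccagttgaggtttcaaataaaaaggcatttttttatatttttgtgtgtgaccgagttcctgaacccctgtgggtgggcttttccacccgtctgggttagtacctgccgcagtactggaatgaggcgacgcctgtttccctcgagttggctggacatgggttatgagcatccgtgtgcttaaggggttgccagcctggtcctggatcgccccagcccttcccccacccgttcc

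The *Car9* and *Egln3* windows each held 1 match, that of *Slc16a3* held 2 close to the start, and that of *Bnip3* held 5 matches, with capitals in a cluster around its CACGTG. A pair of members that were not higher by 2-fold is shown beside them. *Ldha* had 5 matches in the 1 of its 2 windows shown, at chr7:46845554-46845803 (plus strand), more ACGTG matches than any of those above, and a log2 ratio of 0.11 in MSCs. *Slc16a1*, at chr3:104638414-104638663 (plus strand), had 4 matches and was the 1 member that was at least 2-fold lower.
Ldha: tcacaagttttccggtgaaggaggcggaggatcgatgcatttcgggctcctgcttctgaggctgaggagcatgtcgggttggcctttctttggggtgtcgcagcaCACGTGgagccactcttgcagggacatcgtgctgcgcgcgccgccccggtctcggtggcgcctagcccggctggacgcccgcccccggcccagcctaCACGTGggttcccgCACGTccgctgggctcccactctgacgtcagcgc
Slc16a1: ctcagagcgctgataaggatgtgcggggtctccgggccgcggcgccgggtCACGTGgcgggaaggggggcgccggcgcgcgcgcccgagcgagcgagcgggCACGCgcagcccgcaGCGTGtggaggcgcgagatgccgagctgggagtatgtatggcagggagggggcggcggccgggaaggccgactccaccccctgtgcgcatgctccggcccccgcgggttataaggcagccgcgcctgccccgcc

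Of the 36 members, 14 were at least 2-fold higher in *Sipa1*-/- than in Wt MSCs, while 19.3% of all 15298 measured genes were. The 1 member that was at least 2-fold lower was *Slc16a1*, while 11.3% of all genes were. The members' median log2 ratio was 0.65, against 0.04 over all genes, and 33 of the 36 ratios lay above 0. The exceptions were *Aldoc*, *Slc16a1* and *Pfkfb3*, joined by *Gapdh*, *Ldha* and *Pdk1* when arrays were scaled to their median and by *Pdk1* under quantile normalization. Of the HIF system and its targets 8 of 9 (88.9%) were counted as higher, with a median of 1.47. Of the sugar-handling genes 6 of 27 (22.2%) were, near the 19.3% of all genes, with a median of 0.53. Of the 14 higher members 12 rest on 1 probe each, *Ldhb* and *Car9* on several. Next to the threshold, *Egln1* stood just inside at 1.03 and *Pgam1* just outside at 0.85.

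**Figure D1:**
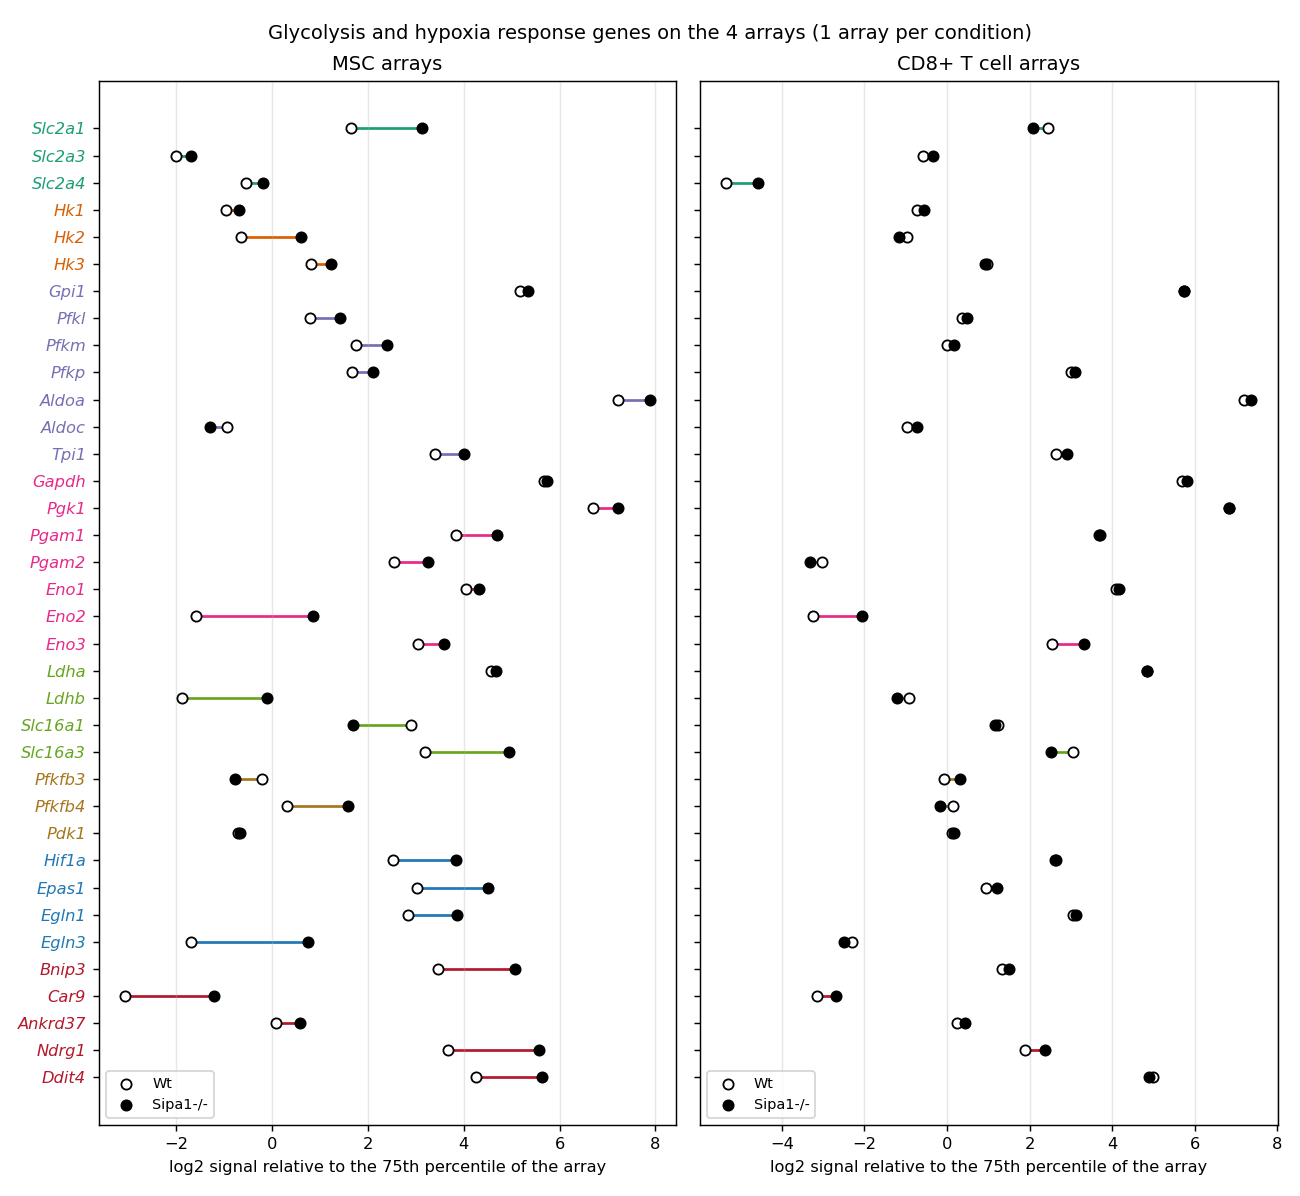
Level of each member (log2 signal relative to the 75th percentile of the array, x axis) on the MSC arrays (left) and the CD8+ T cell arrays (right), with Wt as open and *Sipa1*-/- as filled circles and 1 array per condition. Gene names and the line joining a pair are colored by role. On the left the filled circles lie to the right for 33 of 36 genes, farthest for *Eno2* and *Egln3*. On the right most pairs nearly coincide, and *Eno2* is the 1 gene that is at least 2-fold apart.

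All 4 members of the oxygen-sensing system were higher in *Sipa1*-/- MSCs. *Hif1a*, the alpha subunit found in most cells, had a level of 2.53 in Wt and 3.84 in *Sipa1*-/- MSCs, a log2 ratio of 1.31. *Epas1*, the alpha subunit known from endothelial and some stromal cells, went from 3.03 to 4.50, a ratio of 1.47. Both transcription factors were thus 2.49 to 2.78 times higher at the RNA level, which gives no measure of their proteins. *Egln1*, the main prolyl hydroxylase, had levels of 2.83 and 3.86, a ratio of 1.03 that dropped under the threshold when arrays were scaled to their median. *Egln3*, an inducible hydroxylase that is itself a classical HIF target, had levels of -1.69 in Wt and 0.75 in *Sipa1*-/- MSCs, a ratio of 2.44 or 5.42-fold. Its ratio and that of *Eno2*, also 2.44, were the largest of all members.

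Of the 5 other hypoxia targets, 4 were at least 2-fold higher in *Sipa1*-/- MSCs. *Ndrg1*, a stress-response protein, had levels of 3.66 and 5.57, a ratio of 1.91. *Car9*, the cell-surface carbonic anhydrase that helps cells to export acid, had levels of -3.07 and -1.21, and its 2 probes gave ratios of 1.61 and 2.10. *Bnip3*, a mitochondrial protein that promotes mitophagy, had levels of 3.46 and 5.07, a ratio of 1.61. *Ddit4* (Redd1), an inhibitor of mTORC1 signaling, had levels of 4.25 and 5.63, a ratio of 1.38. *Ankrd37*, whose protein holds ankyrin repeats, was the exception, with 0.08 in Wt and 0.58 in *Sipa1*-/- MSCs, a ratio of 0.50 within the 2-fold bound.

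At the entry of the pathway, 1 transporter and 1 hexokinase stood apart. *Slc2a1* (Glut1), the widespread basal glucose transporter, had a level of 1.66 in Wt and 3.13 in *Sipa1*-/- MSCs, a ratio of 1.47. *Slc2a3* (Glut3), a high-affinity transporter, had levels of -2.00 and -1.69, a ratio of 0.32. The insulin-regulated *Slc2a4* (Glut4) of muscle and fat had levels of -0.54 and -0.19, a ratio of 0.35. *Hk2*, the inducible hexokinase that binds mitochondria, had levels of -0.64 and 0.61, a ratio of 1.26. Its paralogs differed less, with a ratio of 0.27 for the housekeeping *Hk1* and of 0.41 for *Hk3*.

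None of the 7 upper-pathway enzymes reached 2-fold, although 6 of the 7 ratios were above 0 and their median was 0.59. *Aldoa*, the aldolase of most tissues, had levels of 7.21 and 7.89, a ratio of 0.68. The phosphofructokinases, which catalyze the committed step, had ratios of 0.66 for the muscle form *Pfkm*, 0.63 for the liver form *Pfkl* and 0.44 for the platelet form *Pfkp*. *Tpi1*, the triose phosphate isomerase, had a ratio of 0.59 with its 3 probes between 0.56 and 0.63. *Gpi1*, the glucose phosphate isomerase, had a ratio of 0.15. *Aldoc*, the brain-type aldolase, had levels of -0.95 and -1.29, a ratio of -0.34, with both probes below 0.

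In the lower pathway the main forms also stayed within 2-fold. *Gapdh*, with 5 probes the best covered member, had levels of 5.67 and 5.74, and its ratio of 0.07 turned below 0 when arrays were scaled to their median. *Pgk1*, the first ATP-producing step, had levels of 6.69 and 7.22, a ratio of 0.53. Of the phosphoglycerate mutases, *Pgam1* had levels of 3.84 and 4.69, a ratio of 0.85 that was past 1 in the authors' scaled values, and the muscle form *Pgam2* had levels of 2.54 and 3.25, a ratio of 0.71. *Pkm*, the pyruvate kinase that the 36 genes do not include, had levels of 3.86 and 4.31, a ratio of 0.45. Mouse *Gapdh*, *Pgk1*, *Ldha*, *Eno1*, *Aldoa*, *Tpi1* and *Pgam1* have near-identical processed pseudogenes, and the probe sequences were not used here, so some of their signal may be shared with such copies.

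The enolases differed widely among themselves. *Eno2*, the neuron-specific form that is also a HIF target, had a level of -1.58 in Wt and 0.86 in *Sipa1*-/- MSCs, a ratio of 2.44 or 5.41-fold. *Eno1*, the form of most tissues, had levels of 4.04 and 4.31, a ratio of 0.27. *Eno3*, the muscle form, had levels of 3.05 and 3.58, a ratio of 0.53. The ratio of *Eno2* thus exceeded that of *Eno1* by 2.17, while the whole lower-pathway group had a median of 0.53.

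The enzymes and carriers of lactate held both the widest contrast and the 1 lower member. *Ldhb*, the heart-type lactate dehydrogenase subunit, had levels of -1.88 and -0.10, a ratio of 1.78 with its 2 probes at 1.71 and 1.84. *Ldha*, the subunit that favors lactate formation and is a well-known HIF target, had levels of 4.57 and 4.68, a ratio of 0.11 that turned below 0 when arrays were scaled to their median. *Slc16a3* (Mct4), the carrier that exports lactate from glycolytic cells, had levels of 3.18 and 4.95, a ratio of 1.77. *Slc16a1* (Mct1), the more general lactate carrier, had levels of 2.91 and 1.70, a ratio of -1.21, which is 2.32 times lower. The ratios of this pair of carriers were 2.98 apart, the widest of the 8 isoform pairs compared.

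The regulators gave 1 higher gene out of 3. *Pfkfb4*, a bifunctional enzyme that sets the level of the phosphofructokinase activator fructose-2,6-bisphosphate, had levels of 0.31 and 1.58, a ratio of 1.27. Its relative *Pfkfb3* had levels of -0.21 and -0.77, a ratio of -0.55 with its 2 probes at -0.73 and -0.38. *Pdk1*, a kinase that holds pyruvate dehydrogenase inactive, had levels of -0.70 and -0.67, and its 4 probes lay between -0.08 and 0.13, on both sides of 0. Among the isoform pairs, *Slc2a1* exceeded *Slc2a3* by 1.15, *Hk2* exceeded *Hk1* by 0.99, *Ldhb* exceeded *Ldha* by 1.66, *Pfkfb4* exceeded *Pfkfb3* by 1.82, *Egln3* exceeded *Egln1* by 1.41 and *Pfkm* exceeded *Pfkp* by 0.22.

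**Figure D2:**
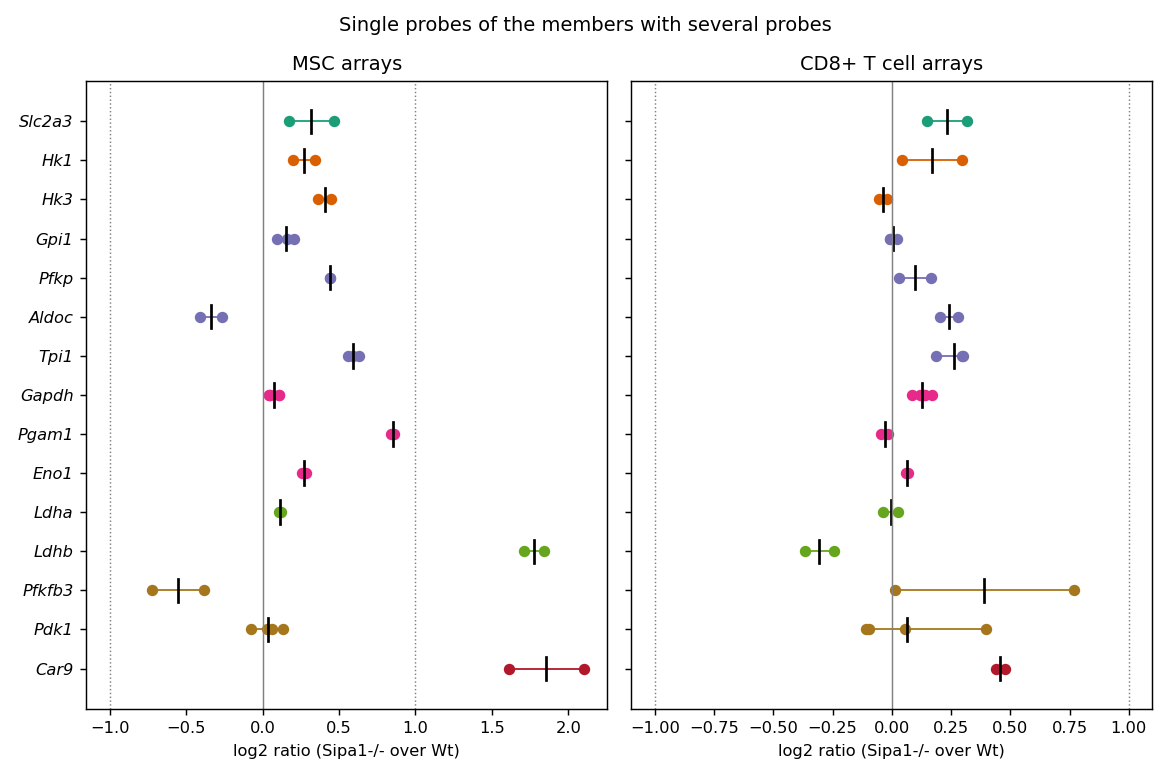
Genotype log2 ratio (*Sipa1*-/- over Wt, x axis) of each single probe for the 15 members with several usable probes, in MSCs (left) and CD8+ T cells (right); the black bar is the mean of the points and the dotted lines mark 2-fold. The x axes of the panels differ in range. Probes of *Ldhb* and *Car9* lie past 1 in MSCs, those of *Gapdh* within 0.04 to 0.11, and the probes of *Pfkfb3* and *Pdk1* lie apart in CD8+ T cells.

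Genes of the same pathways outside the 36 were read from a pair of further lists. Of 35 measured genes of other glucose metabolism, 9 (25.7%) passed 2-fold upward in *Sipa1*-/- MSCs and 0 downward, with a median of 0.25, beside the 19.3% and 11.3% of all measured genes. Among them were the lactate carrier *Slc16a7* at 1.79, the transporters *Slc2a10* at 1.75 and *Slc2a12* at 1.41, and *Pgm1*, which links glucose to glycogen, at 1.32. Of 36 measured other hypoxia genes, 13 (36.1%) passed 2-fold upward and 0 downward, with a median of 0.82. The 5 highest were *Lox* at 2.65, *Plod2* at 2.44, *Plod1* at 2.35, *Ak4* at 2.35 and *P4ha2* at 2.34. All of these except the adenylate kinase *Ak4* modify or crosslink collagen, and collagen-producing cells express them also as part of matrix synthesis.

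Fibroblast markers were higher on the same array. Of 18 measured fibroblast markers, 13 were at least 2-fold higher in *Sipa1*-/- MSCs and 0 were lower, with a median of 1.66, and their summed level went from 10.39 in Wt to 11.25. The summed level is the log2 of the list's added signals over the 75th percentile. The 2 first-listed markers differed little, with *Col1a1* at 6.88 and 7.15 and *Col1a2* at 8.56 and 8.91. The B-lineage list had summed levels of 9.56 in Wt and 5.55 in *Sipa1*-/- MSCs, with 17 of 17 lower. Of the common leukocyte markers 13 of 16 were lower, the summed level being 7.76 in Wt and 5.92 in *Sipa1*-/- MSCs, and *Ptprc* (CD45) had levels of 0.76 and -0.55. All 24 measured cell cycle genes were lower, with summed levels of 8.35 and 6.47 and with *Mki67* at 5.71 and 4.03. The part that these differences in cell content and cycling had in the ratios of the glycolysis and hypoxia genes was not tested.

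Markers of further cell types were read in the same way. Of 16 skeletal muscle markers, 2 were at least 2-fold higher, the median was 0.64 and the summed level went from 7.17 to 7.94, with *Acta1* at 4.78 and 5.38 and *Ckm* at 1.85 and 2.46. The members known from muscle had ratios of 0.71 (*Pgam2*), 0.66 (*Pfkm*), 0.53 (*Eno3*) and 0.35 (*Slc2a4*). The median over all 36 members was 0.65. Members not specific to muscle lay as near to 0.64, among them *Aldoa* at 0.68 and *Pfkl* at 0.63. Of 10 macrophage markers 4 were higher, with a median of 0.99. Of 9 endothelial markers 3 were higher and 1, *Pecam1* (CD31), was lower. The endothelial median was 0.69, and the summed endothelial level went from 3.16 in Wt to 3.92 in *Sipa1*-/- MSCs. Granulocyte markers had a median of 0.23 and erythroid markers one of -0.08, although both were strong on both MSC arrays, with *S100a8* at 7.21 and 7.39 and *Hba-a1* at 8.30 and 8.39. T-cell markers were split, with 4 of 11 past 2-fold upward and 4 downward, ratios from -3.52 to 1.43, and a summed level of 4.43 in Wt and 2.22 in *Sipa1*-/- MSCs. The remaining lists had medians of 0.84 for adipocytes (4 of 8 genes measured) and 0.35 for Schwann cells and neurons. The part of these cells in the members' ratios was not tested.

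**Figure D3:**
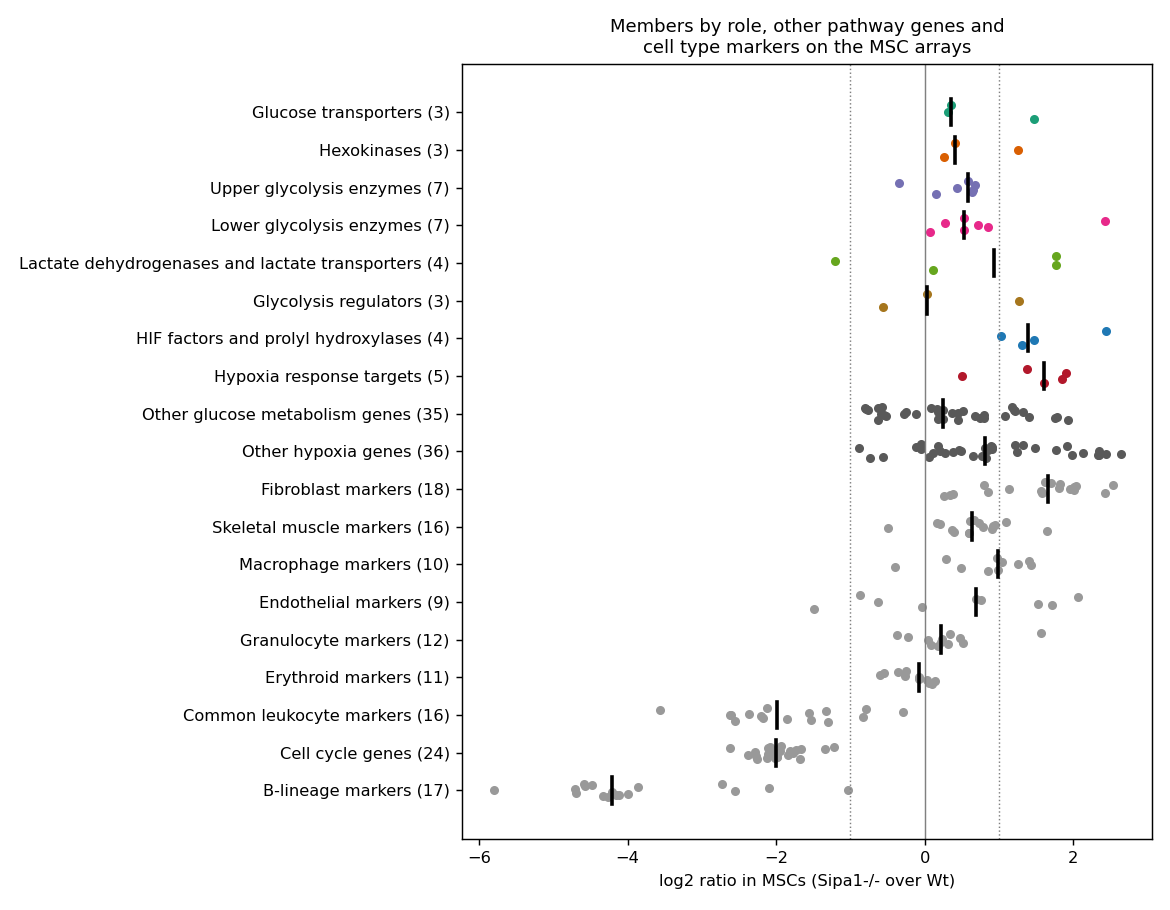
Genotype log2 ratio in MSCs (*Sipa1*-/- over Wt, x axis) of every measured gene in the member groups (colored), the 2 further pathway lists (dark gray) and 9 cell type lists (light gray), with the number of genes in brackets. Each point is a gene, black bars are medians, and dotted lines mark 2-fold. The HIF factors and hydroxylases and the hypoxia targets have medians of 1.39 and 1.61, near the 1.66 of the fibroblast markers, and the B-lineage list has one of -4.22.

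In CD8+ T cells the members hardly differed between genotypes. *Eno2* was the 1 member at least 2-fold higher in *Sipa1*-/- cells, while 2.66% of all 14339 measured genes were, and 0 members were at least 2-fold lower, while 1.4% of all genes were. The members' median ratio was 0.08, against -0.02 over all genes. *Eno2* had levels of -3.25 in Wt and -2.06 in *Sipa1*-/- cells, a ratio of 1.19 that fell under the threshold with the normexp background correction, where 0 members were counted. The next were *Eno3*, with levels of 2.55 and 3.31 and a ratio of 0.77, and *Slc2a4*, with levels of -5.35 and -4.59, near the lowest measured on the array, and a ratio of 0.76. Both are known from muscle, as are *Pgam2* at -0.29 and *Pfkm* at 0.15. Of 11 measured skeletal muscle markers 0 were at least 2-fold higher and 1 was lower, with a median of -0.02. The part of muscle RNA in these ratios was not tested.

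The other sugar-handling genes also stayed within 2-fold in CD8+ T cells. All 7 upper-pathway enzymes had ratios between 0.00 and 0.26, of which *Gpi1*, *Pfkl* and *Pfkp* turned below 0 when arrays were scaled to their median and *Gpi1* also under normexp. All 4 genes of lactate handling had ratios below 0, from -0.01 for *Ldha* to -0.53 for *Slc16a3*, although *Ldha* turned above 0 under quantile normalization and, with *Slc16a1*, in the authors' scaled values. *Slc16a3* had levels of 3.05 and 2.51 and was the lowest member, and *Slc2a1*, with levels of 2.44 and 2.09, followed at -0.35. Activated T cells are known to use *Slc2a1* as their main glucose transporter. *Pfkfb3* had a ratio of 0.39, but its 2 probes gave 0.01 and 0.77. *Pdk1* had a ratio of 0.06 with probes from -0.11 to 0.40.

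The HIF system and its targets stayed within 2-fold in CD8+ T cells as well, with a median of 0.17 over 9 genes. *Hif1a* had levels of 2.61 and 2.65, a ratio of 0.04, and *Egln1* had a ratio of 0.06, both of which turned below 0 when arrays were scaled to their median. The highest were *Ndrg1*, with levels of 1.88 and 2.38 and a ratio of 0.49, and *Car9*, with levels of -3.15 and -2.69 and a ratio of 0.46. *Epas1* had levels of 0.94 and 1.21, a ratio of 0.27. *Egln3* had levels of -2.30 and -2.49, a ratio of -0.19 that turned above 0 under normexp. *Ddit4* had levels of 5.00 and 4.89, a ratio of -0.11 that turned above 0 in the authors' scaled values.

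Of the further lists in CD8+ T cells, 0 of 30 other glucose genes passed 2-fold in either direction, and their median was -0.16. Of 35 other hypoxia genes 4 were higher, namely *Lox* at 2.28, *P4ha2* at 1.69, *Plod2* at 1.58 and *Plod1* at 1.03, and *Hif3a* was lower at -1.21. The 4 higher ones are the collagen-modifying genes named above. On the same arrays 19 of 20 fibroblast markers were at least 2-fold higher in the *Sipa1*-/- CD8+ sample, with summed levels of 7.83 and 8.50, whereas 0 of 12 T-cell markers passed 2-fold in either direction. Granulocyte markers were lower, 10 of 12 by at least 2-fold, with summed levels of 9.34 in Wt and 8.40 in *Sipa1*-/- samples, and 4 of 8 erythroid markers were lower. The part of these cells in the ratio of *Eno2* was not tested.

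The genotype ratios of the cell types were set against each other over 13766 genes with probes usable on all 4 arrays. The MSC ratio exceeded the CD8+ ratio by at least 1 for 14 members, while this held for 12.9% of all genes, and it was lower by at least 1 for *Slc16a1* alone, while this held for 11.3% of all genes. The median difference was 0.51 over the members and -0.02 over all genes. With 1 array per condition this difference was not tested. *Egln3* had the largest, 2.63, followed by *Slc16a3* at 2.30, *Ldhb* at 2.08, *Slc2a1* at 1.83 and *Pfkfb4* at 1.56. *Ddit4* at 1.49, *Hk2* at 1.45, *Bnip3* at 1.44, *Ndrg1* at 1.41 and *Car9* at 1.40 came next. *Hif1a* at 1.28, *Eno2* at 1.25, *Epas1* at 1.20 and *Pgam2* at 1.01 completed the 14. The difference for *Slc16a1* was -1.13.

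**Figure D4:**
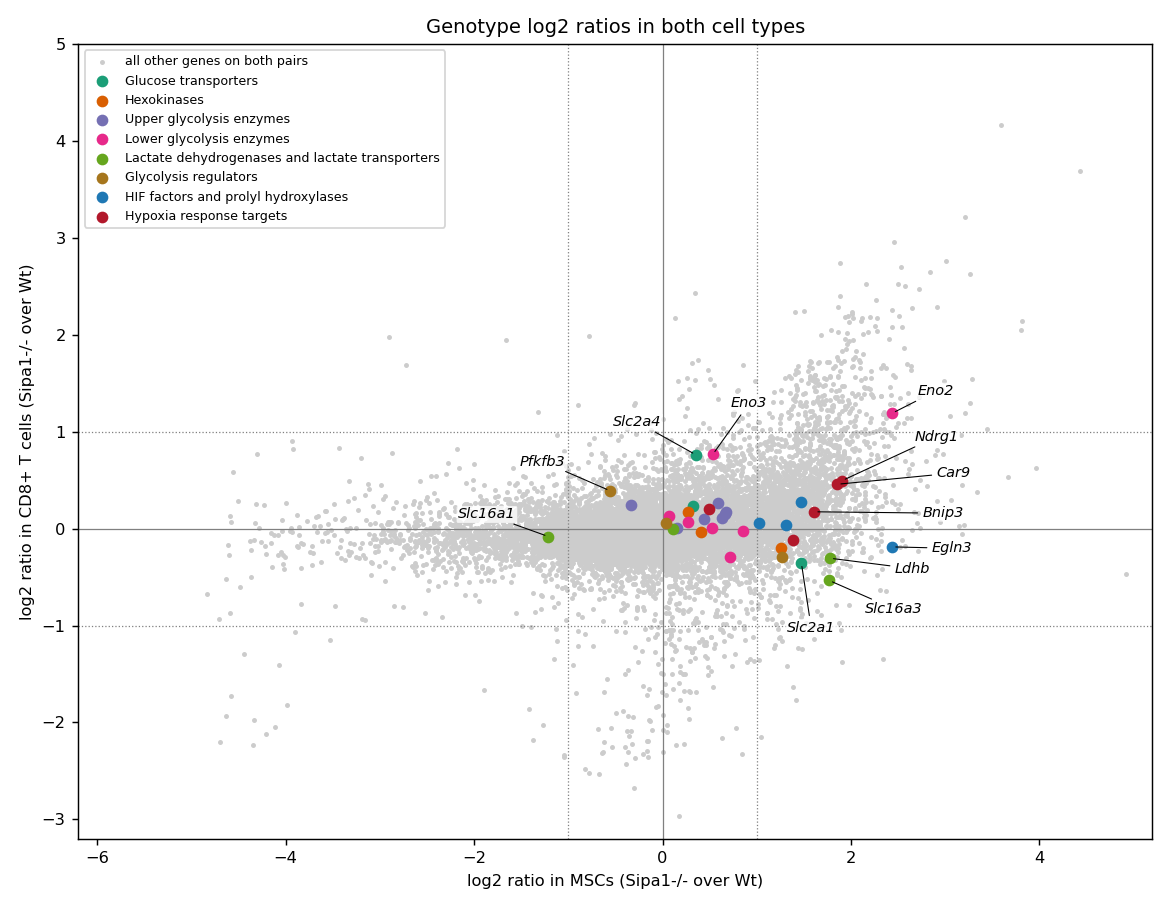
Genotype log2 ratio in MSCs (x axis) against that in CD8+ T cells (y axis), with members as colored points and all other genes measured on all 4 arrays in gray; dotted lines mark 2-fold. Members spread along the x axis and stay within 2-fold on the y axis, except *Eno2* at 2.44 and 1.19. The next on the y axis are *Eno3* at 0.77 and *Slc2a4* at 0.76, and the lowest is *Slc16a3* at -0.53. *Slc16a1*, at -1.21, is the 1 member past 2-fold on the left.

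The levels of the members in MSCs were also set against those in CD8+ T cells within each genotype. These comparisons use the same 4 arrays, so their differences repeat the genotype ratios above and are not independent of them. In Wt mice 8 members were at least 2-fold higher in MSCs than in CD8+ T cells, while 17.3% of 14225 genes were, and 2 were lower, while 12.8% of genes were. The members' median ratio was 0.01, and -0.06 over all genes. In *Sipa1*-/- mice 17 members were higher, while 21.9% of 14300 genes were, and 2 were lower, while 18.7% were. The members' median was 0.85, and -0.18 over all genes.

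The members higher in MSCs of both genotypes were *Bnip3*, *Eno2*, *Epas1*, *Ndrg1*, *Pfkm*, *Pgam2* and *Slc2a4*, of which *Eno2* dropped under 2-fold in Wt mice under normexp. The widest gaps were those of *Pgam2* and *Slc2a4*. *Pgam2* was at 2.54 in Wt MSCs and -3.04 in Wt CD8+ T cells, a ratio of 5.58, and at 3.25 and -3.33 in *Sipa1*-/- mice, a ratio of 6.58. *Slc2a4* had ratios of 4.80 in Wt and 4.40 in *Sipa1*-/- mice. *Pfkm*, another muscle form, had ratios of 1.73 and 2.24. On the same arrays all 12 measured skeletal muscle markers were at least 2-fold higher in Wt MSCs, with a median ratio of 6.61 and summed levels of 7.33 against 1.86, and all 11 measured in *Sipa1*-/- mice were, with a median of 6.52. The part of muscle RNA in these ratios was not tested. *Eno3*, also a muscle form, had ratios of only 0.50 and 0.27.

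*Epas1* had ratios of 2.09 in Wt and 3.29 in *Sipa1*-/- mice, *Bnip3* of 2.12 and 3.55, and *Ndrg1* of 1.78 and 3.19. The endothelial list, from cells known to express *Epas1*, had 2 of 8 genes higher and 4 lower in Wt MSCs. *Pecam1* was at -1.47 there and at -1.05 on the Wt CD8+ array. In *Sipa1*-/- mice 2 of 9 endothelial genes were higher and 4 lower in MSCs. The summed endothelial level was higher in MSCs than in CD8+ T cells in both genotypes, being 3.92 against 2.74 in *Sipa1*-/- mice. How far endothelial RNA contributed to the *Epas1* ratios was not tested. On the lower side, *Slc2a3* was lower in MSCs of both genotypes, at -1.43 and -1.34. *Pfkp*, at -1.33 in Wt and -0.99 in *Sipa1*-/- mice, passed the threshold in Wt mice, and *Pfkfb3*, at -0.13 and -1.08, passed it in *Sipa1*-/- mice. There the 2 probes of *Pfkfb3* disagreed, with -1.58 for the dimmer and -0.57 for the brighter probe, which is within 2-fold. With the authors' scaled values 0 members were at least 2-fold lower in either genotype.

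In *Sipa1*-/- but not in Wt mice 10 further members reached 2-fold, and 8 of them, namely *Car9*, *Egln3*, *Hif1a*, *Hk2*, *Ldhb*, *Pfkfb4*, *Slc16a3* and *Slc2a1*, were also among those at least 2-fold higher in *Sipa1*-/- than in Wt MSCs. Both sets of calls use the *Sipa1*-/- MSC array, so this overlap is not independent. Over all genes the share higher in MSCs was 17.3% in Wt and 21.9% in *Sipa1*-/- mice. The share of all genes higher in *Sipa1*-/- mice only is not given here. Of the 17 higher members in *Sipa1*-/- mice, median scaling left 12, without *Slc2a1*, *Tpi1*, *Pgam1*, *Ldhb* and *Hif1a*, and normexp left 15, without *Ldhb* and *Car9*. In the authors' scaled values *Egln3* and *Tpi1* were higher in Wt mice too. *Slc16a3* had a ratio of 0.14 in Wt and 2.44 in *Sipa1*-/- mice, and *Egln3* one of 0.61 and 3.24. Of the 8 named, *Slc2a1*, *Ldhb* and *Hif1a* crossed 0. *Slc2a1* went from -0.78 to 1.04, *Ldhb* from -0.97 to 1.12, and *Hif1a* from -0.09, which was above 0 in the authors' scaled values, to 1.19. *Slc16a1* was the reverse case, higher in Wt MSCs at 1.66 and at 0.53 in *Sipa1*-/- mice.

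**Figure D5:**
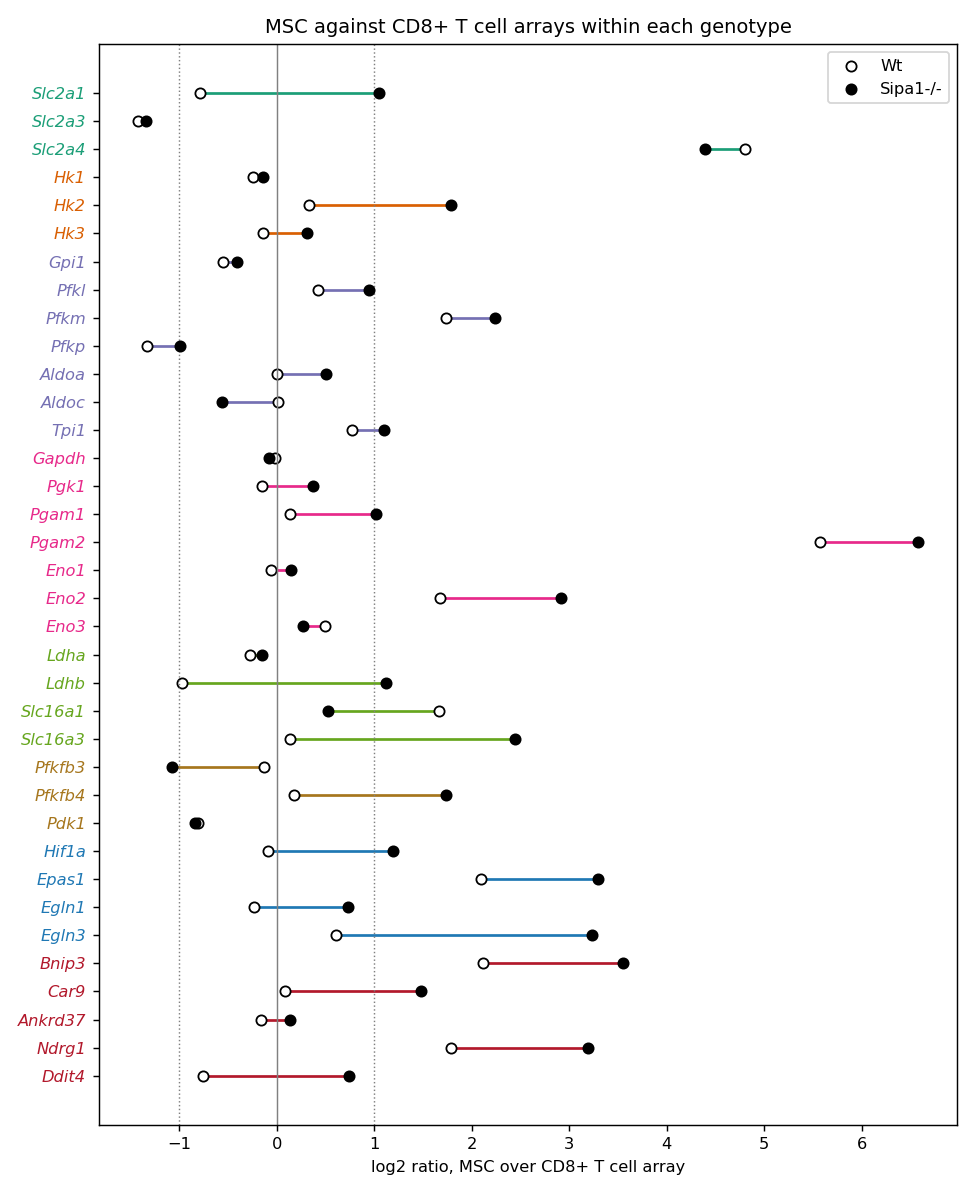
Log2 ratio of the MSC over the CD8+ T cell array (x axis) for each member within Wt (open circles) and *Sipa1*-/- mice (filled circles), 1 array per condition; dotted lines mark 2-fold and colors mark roles. *Pgam2* and *Slc2a4* lie farthest to the right in both genotypes. The filled circle lies to the right by more than 2 for *Egln3*, *Slc16a3* and *Ldhb* and to the left by more than 1 for *Slc16a1*.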

How the data were processed

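Agilent SurePrint G3 Mouse v2 one-color arrays measured MSC and CD8+ T-cell RNA of Wt and *Sipa1*-/- mice, 1 array per condition, all 4 on 1 slide, in 1 scan. The deposited scanner files hold spot intensities that the authors' Feature Extraction software had corrected for background, without normalization between arrays. The file headers name version 12.0.3.1 and the submitters' processing notes 9.1. The authors' value table holds the same intensities on a linear scale, uncentered, times 1 constant per array (1.13 for Wt and 1.34 for *Sipa1*-/- MSCs, 0.941 and 1.13 for CD8+ T cells), with column medians of 41.0, 52.0, 25.5 and 30.9 in that order. It served as an alternative, and how the constants were set is not given in the sources used here.

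Each processed intensity was turned to log2, minus the 75th percentile over the array's 59305 non-control spots. Spots were kept where 3 flags (saturation, non-uniform spot, non-uniform background) were 0 and 2 flags (significant, well above background) were 1 on both arrays of a pair, as in the study's methods. Spots were averaged per probe, then probes per gene. Symbols came from accessions matched to RefSeq (GRCm38.p6), which named 57.6% of non-control spots. The number of arrays limits the precision, and no test, p-value or standard error was computed. The computation was checked on simulated data with 200 changed genes, which tests the arithmetic of the calls and not the spread between mice.

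The named genes are all 36 members, *Sipa1*, *Pkm*, up to 5 genes per direction of each pathway list with the largest ratio past 1, and the first 2 genes of each marker list where it is given beside a result. Some genes that this rule names are not reported here. Members, lists and settings were chosen with earlier results of these data known. Alternatives were flags on 1 array, no flags, median scaling, quantile normalization, the authors' value table, normexp (offset 50) on the median spot signal, the brightest probe per gene, and only genes whose signal exceeded the median. Versions: Python 3.11.15, numpy 2.4.6, pandas 2.3.3, matplotlib 3.10.9, R 4.3.3 and limma 3.58.1.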

Additional observations from a re-analysis of the deposited data

Results flagged for a closer look

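For 9 members the genotype ratio had opposite signs in MSCs and CD8+ T cells, with both ratios larger in size than 0.13 on the log2 scale, a limit derived from the SD of repeat spots that leaves out the spread between mice. With 1 array per condition, how far the cell types differ was not tested for any of them. The share of all genes that meets the same rule is not given here, so the count of 9 has no background beside it. The MSC ratio was above and the CD8+ ratio below 0 for 7 of the 9 members. Among these the difference of the log2 ratios, MSC minus CD8+, was 2.63 for the hydroxylase *Egln3* (whose CD8+ ratio turned above 0 under normexp), 2.30 for the lactate exporter *Slc16a3* and 2.08 for the lactate dehydrogenase subunit *Ldhb*. It was 1.83 for the glucose transporter *Slc2a1*, 1.56 for *Pfkfb4*, 1.45 for the hexokinase *Hk2* and 1.01 for the muscle mutase *Pgam2*. The signs were the other way round for *Pfkfb3*, with a difference of -0.94, and for the aldolase *Aldoc*, with -0.58. In CD8+ T cells the dimmer probe of *Pfkfb3* gave 0.77 and the brighter one 0.01, which is under the limit of 0.13.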

How the results depend on the processing

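The count of 14 higher members in MSCs was kept under flags on 1 array, no flags, quantile normalization, normexp and the brightest probe, with the same 14 genes each time. Scaling to the array median left 13 of them (without *Egln1*), the authors' scaled values added *Pgam1*, and genes above the median signal held 12 of them among 30 members. The members' median moved in MSCs to 0.51 (median scaling), 0.73 (quantile), 0.85 (authors' values) and 0.57 (normexp). In CD8+ T cells it moved to -0.067 (median scaling) and 0.21 (authors' values), and 0 members were higher under normexp and above the median signal. For MSCs over CD8+ T cells in Wt mice the median moved to -0.22 (median scaling), 0.17 (quantile) and 0.46 (authors' values), the 8 higher members became 10 (authors' values), 7 (normexp) and 6 (above the median signal), and the 2 lower members became 5 (median scaling), 0 (authors' values), 1 (normexp) and 1 (above the median signal). In *Sipa1*-/- mice the median moved to 0.62 (median scaling), 1.10 (quantile), 1.37 (authors' values) and 0.74 (above the median signal), the 17 higher members became 12 (median scaling), 20 (quantile), 22 (authors' values), 15 (normexp) and 12 (above the median signal), and the 2 lower members became 4 (median scaling), 0 (authors' values), 0 (normexp), 1 (brightest probe) and 1 (above the median signal). The median difference between the cell types moved to 0.59 with the authors' values, and was not run for the brightest probe or for genes over the median signal. Median scaling shifts the median of all genes by -0.14 (MSCs) and -0.15 (CD8+), and the authors' values by 0.21 and 0.13, so these moves are shared by all genes. Of all genes called, the share that was higher was 63.1% (MSCs) and 65.5% (CD8+), 74.1% and 76.3% with the authors' values, and 52.5% in CD8+ T cells with median scaling. For MSCs over CD8+ T cells it was 57.4% in Wt and 54.0% in *Sipa1*-/- mice, 45.5% and 42.9% with median scaling, and 76.6% and 76.3% with the authors' values. Calls in CD8+ T cells numbered 381 higher and 201 lower, 685 and 371 with flags on 1 array, 1059 and 633 with no flags, and 108 and 98 under normexp. In MSCs normexp gave 1828 higher genes against 2958. Signal over background, not depth, limits the dimmest members in CD8+ T cells, *Slc2a4*, *Eno2*, *Car9* and *Pgam2*, whose Wt levels lay between -5.35 and -3.04. No paired analysis was possible because every group consists of 1 array, and for the same reason no array could be left out.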
